A study of Mus musculus with 21 samples.

Results

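The mitochondrial ribosomal proteins are the protein components of the ribosome inside mitochondria, here the genes whose symbol starts with Mrpl (large subunit) or Mrps (small subunit) followed by a digit, with pseudogenes left out. The rule found 78 genes, 49 Mrpl and 29 Mrps, among the 23148 genes listed in 3 tables of mouse RNA-seq values, and all 78 could be tested in the eosinophil and progenitor table and in the cultured eosinophil table. In the table of cytokine-treated cells 76 were tested. Mrpl43 and Mrps10 were not analysed there, and a second row carrying the symbol Mrps6, identified as Gm49711, had 0 counts in its 6 libraries.

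In mammals, all mitochondrial ribosomal proteins are encoded in the nucleus, made in the cytosol and imported, whereas the ribosomal RNAs they bind come from the mitochondrial genome. The finished particle translates the few proteins that mitochondrial DNA encodes, which are core subunits of respiratory complexes and of ATP synthase. Some members have a bacterial counterpart and others were added to the particle during the evolution of mitochondria, and inherited defects in several of them impair oxidative phosphorylation in humans.

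The cells came from WT mice, and 21 libraries fell into 7 groups. Bone marrow eosinophils (EOS, n = 3) were set against bone marrow granulocyte-macrophage progenitors (GMP, n = 3), both untreated. Eosinophils given IL-4, GM-CSF and 1 more interleukin, which the labels give as IL33, IL34 or IL35 by replicate (T2, n = 3), were set against untreated eosinophils (REST, n = 3). Taken literally, those labels make the T2 libraries 3 different treatments, and whether they do or are a labelling error is not settled by the sources used here, so the 3 libraries were kept as 1 group as titled. Bone marrow-derived eosinophils, called cultured eosinophils here, received the iron source ferric ammonium citrate at 10 µM (FAC, n = 4), the iron chelator deferoxamine at 5 µM (DFO, n = 3) or neither (CON, n = 2). Those cultures had SCF and FLT3 ligand at 100 ng/mL each for 4 days and IL-5 at 10 ng/mL afterwards, with the chelator or the iron source present from day 4 and harvest on day 7. The study's stated purpose was to find the programmes that accompany iron pool expansion, to compare an allergy-like stimulus with rest, and to see how iron depletion and iron loading alter the eosinophil transcriptome. The labels repeat the culture protocol for every sample, so the isolation and age of the other cells are not given in the sources used here, and nothing says that replicates were separate animals or cultures. P-values therefore measure the spread between these libraries, which may be technical.

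Libraries held 25857361 to 28992674 counts in the EOS and GMP table, 16073573 to 18995878 in the T2 and REST table and 16809773 to 17991870 in the cultured eosinophil table. The 10 eosinophil markers examined, among them Epx, Prg2 and Ccr3, all exceeded 1 CPM (read counts scaled to a common library size with TMM factors) on average in each group labelled as eosinophils. Other cell types were also present by their markers: 10 neutrophil genes summed to 33219, 72067 and 197980 CPM in the 3 EOS libraries, against 65.9 to 98.3 CPM in GMP. The eosinophil marker sum was below the neutrophil sum in every EOS library, at 20279, 20125 and 36901 CPM. The 6 progenitor markers, among them Mpo, Elane and Kit, summed to 36513 to 62118 CPM in EOS and 51046 to 61063 CPM in GMP, with overlapping ranges. The part of neutrophil and progenitor transcripts in the EOS values below was not tested. EOS replicate 3 and FAC replicate 6 stood apart from the other libraries of their groups, and results that rest on them are given with and without them. In these bulk samples, fewer cells of a type and less RNA per cell cannot be told apart.

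Summed over the members, the TMM-scaled level was 5843 ± 2580 CPM in EOS and 3996 ± 510 CPM in GMP (SD, n = 3 each). It was 1333 ± 50 CPM in T2 and 1069.9 ± 6.9 CPM in REST (SD, n = 3 each). Among cultured eosinophils it was 2583 ± 505 CPM in FAC (n = 4) and 1919 ± 25 CPM in DFO (n = 3), against 2229 ± 1.5 CPM in CON (n = 2, SD throughout). Without FAC replicate 6 the FAC level was 2337 ± 132 CPM (n = 3), and FAC replicate 7, at 2193 CPM, lay below both CON libraries. The sums did not overlap between T2 and REST or between FAC and DFO, and DFO lay below both CON libraries, whereas the EOS and GMP sums overlapped. The proportion of the subunits stayed near the same value in the group means: the summed Mrpl level divided by the summed Mrps level was 2.05 ± 0.04 in EOS, 1.97 ± 0.01 in GMP, 2.03 ± 0.04 in T2, 2.00 ± 0.02 in REST, 1.99 ± 0.07 in FAC, 2.01 ± 0.01 in DFO and 1.98 ± 0.01 in CON (SD). The lowest single value, 1.89, was that of FAC replicate 6, and without that library the FAC ratio was 2.03 ± 0.02.

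**Figure D1:**
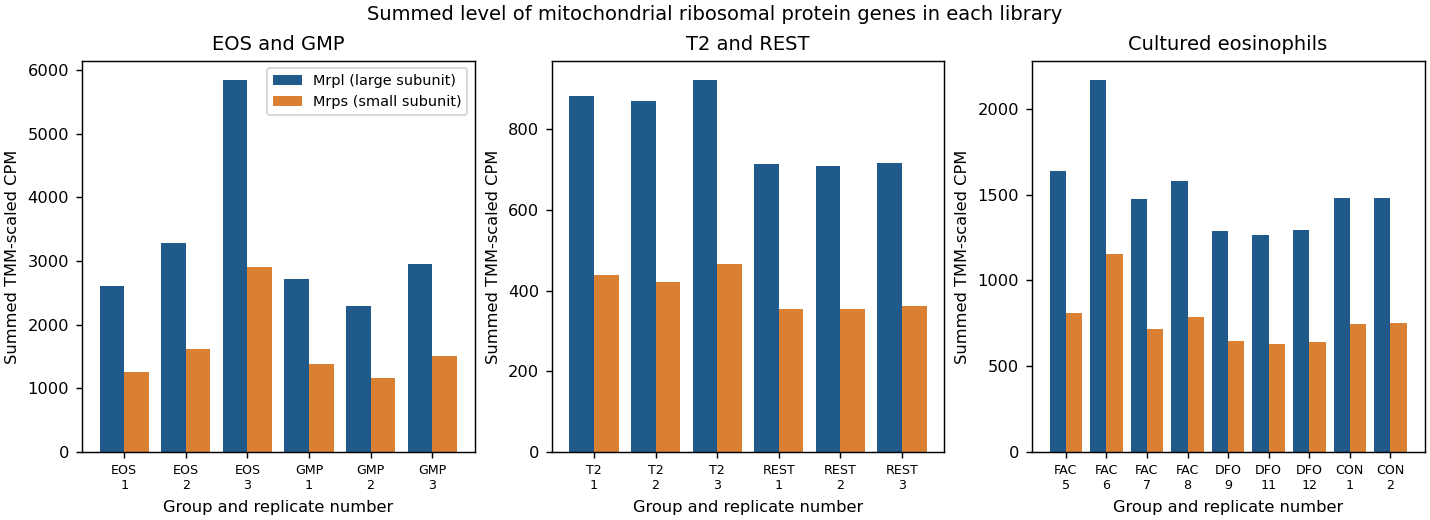
Summed TMM-scaled CPM of the Mrpl genes (blue) and the Mrps genes (orange), 1 pair of bars per library, with each table scaled on its own and on its own axis. EOS replicate 3 is the highest bar pair of its panel at 5851 and 2911 CPM, and FAC replicate 6 is the highest of the cultured eosinophils at 2172 and 1152 CPM. By deposited TPM, EOS replicate 3 has the lowest Mrpl and Mrps medians of the libraries in its panel.

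By level per length, Mrpl33, a small large-subunit protein with a bacterial counterpart, had the highest mean in every group except GMP. Its deposited TPM (a length-corrected share of transcripts) was 404.6 ± 236.3 in EOS and 366.7 ± 24.2 in GMP (SD, n = 3 each). Mrpl42 had 252.6 ± 79.7 TPM in EOS and 382.1 ± 53.1 TPM in GMP, so that in GMP its mean was above that of Mrpl33 by less than the spread. Mrpl33 had 290.1 ± 9.1 TPM in FAC and 245.6 ± 14.7 TPM in DFO, against 280.2 ± 4.6 TPM in CON. By deposited FPKM (fragments scaled by length and depth) it had 70.9 ± 1.5 in T2 and 94.7 ± 2.3 in REST. By the mean over all libraries of a table, Mrpl42 and Mrpl18 came next for EOS and GMP, Mrps21 and Mrpl18 for cultured eosinophils, and Mrpl24 and Mrps21 for T2 and REST. At the lower end of the cultured eosinophil table, Mrps25 had 5.20 ± 0.43 TPM in FAC, 5.16 ± 0.69 TPM in DFO and 5.44 ± 0.08 TPM in CON, so it, with Mrpl17 and Mrpl35, formed the low end there with group values inside each other's spread.

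The starts of the genes were examined for motifs of factors known to act on nuclear genes for mitochondria. RefSeq starts (build GRCm38.p6) were matched for 69 of the 78 genes, each with a window of 250 bases before and 50 bases after the start, leaving Mrpl13, Mrpl15, Mrpl19, Mrpl38, Mrpl4, Mrpl54, Mrps28, Mrps34 and Mrps35. Searching both strands with overlaps allowed, the ETS-type motif CCGGAAG was in the windows of 37.7% of the members and of 20.1% of 10131 protein-coding genes tested in cultured eosinophils, the YY1-type AANATGGC in 30.4% and 9.97%, and the NRF1-type motif, GCGCA then any base then GCGC, in 18.8% and 11.3%. The CCAAT box was in 39.1% of the members and 43.4% of those genes, the GC box GGGCGG in 49.3% and 66.7%, and the E-box CACGTG in 7.25% and 11.5%. A match is a description of letters, not a site. The 150 bases upstream of 6 starts are shown on the gene's strand, 5′ to 3′, because they belong to genes whose values are given below, with NRF1-type or ETS-type matches in capitals:
Mrpl45: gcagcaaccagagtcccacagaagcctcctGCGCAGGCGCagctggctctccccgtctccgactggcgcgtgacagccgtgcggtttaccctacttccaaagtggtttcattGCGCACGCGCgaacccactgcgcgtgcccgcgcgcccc
Mrpl12: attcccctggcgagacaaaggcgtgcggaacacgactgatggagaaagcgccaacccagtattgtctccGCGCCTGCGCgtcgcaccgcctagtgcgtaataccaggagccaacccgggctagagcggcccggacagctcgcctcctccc
Mrps21: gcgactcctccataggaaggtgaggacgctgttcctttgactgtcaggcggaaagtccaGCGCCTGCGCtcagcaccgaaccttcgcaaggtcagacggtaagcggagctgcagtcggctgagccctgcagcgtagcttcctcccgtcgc
Mrps22: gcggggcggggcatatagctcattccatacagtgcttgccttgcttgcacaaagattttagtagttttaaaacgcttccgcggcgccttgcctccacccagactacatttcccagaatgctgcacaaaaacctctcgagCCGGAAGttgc
Mrpl52: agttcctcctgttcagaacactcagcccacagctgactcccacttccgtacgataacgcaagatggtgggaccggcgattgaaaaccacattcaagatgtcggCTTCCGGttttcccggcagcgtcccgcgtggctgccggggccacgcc
Mrpl34: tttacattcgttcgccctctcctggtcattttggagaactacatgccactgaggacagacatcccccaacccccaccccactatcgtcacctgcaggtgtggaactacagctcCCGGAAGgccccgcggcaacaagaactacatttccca

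The Mrpl45 stretch is chr11:97315566-97315715 on the plus strand and has NRF1-type matches that start 120 and 38 bases before the gene start. The Mrpl12 stretch, chr11:120484487-120484636 on the plus strand, and the Mrps21 stretch, chr3:95871515-95871664 on the minus strand, each have 1 such match on the opposite strand, starting 81 and 91 bases before the start. ETS-type matches start 11 bases before the start of Mrps22 (chr9:98601680-98601829, minus strand), 47 bases before that of Mrpl52 on the opposite strand (chr14:54426759-54426908, plus strand) and 37 bases before that of Mrpl34 (chr8:71464776-71464925, plus strand). Genes with the same kind of match moved in different directions in 1 comparison: in T2 cells Mrpl52 rose and Mrpl34 fell, as the values below show.

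The members lie on 17 chromosomes, and 26 of 78 (33.3%) start within 1000 bases of an oppositely oriented protein-coding gene, against 14.5% of 12331 tested protein-coding genes by GENCODE M21 on GRCm38. Mrpl46 (chr7:78775236-78783531) and Mrps11 (chr7:78783119-78792989) form 1 such pair with each other. The annotated bodies of 42 members overlap another gene, and 23 overlap a protein-coding gene on the opposite strand, among them Mrpl33, Mrpl24, Mrpl27 and both members of that pair. The strand setting of the counting is not given in the sources used here, so reads of such partners may be shared and their values are uncertain to that extent. Another 4 overlaps, of Mrpl53, Mrps24, Mrps34 and Mrps6, are with a protein-coding gene on the same strand, where strand cannot tell the reads apart.

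On the CPM scale, iron-loaded cultured eosinophils had more of these transcripts than iron-depleted ones. With FAC set against DFO, 30 of 49 Mrpl genes and 17 of 29 Mrps genes rose and none fell (edgeR quasi-likelihood test, Benjamini-Hochberg adjusted p under 0.05 over 12607 genes), where 23.5% of all tested genes rose and 24.8% fell. The fitted log2 fold change was above 0 for 77 of 78 members, with a median of 0.40 for Mrpl and 0.43 for Mrps genes, against -0.01 for all tested genes. For 58 of 78 members every FAC library lay above every DFO library, against 26.8% of all tested genes. On the deposited TPM scale, where the median of all tested genes was -0.26, the members' median was 0.08, and limma on log2(TPM + 1) called 13 members higher and 1, Mrps6, lower, where 8.37% of all tested genes were higher and 40.1% lower; 6 of the 47 genes that rose on the CPM scale had the other sign there, namely Mrpl9, Mrpl19, Mrpl37, Mrpl44, Mrps2 and Mrps35. The members' median stood above that of all genes by 0.43 on the CPM scale and by 0.34 on the TPM scale. By deposited TPM the medians of single libraries overlapped between the groups. For Mrpl genes they were 44.07, 50.25, 46.09 and 46.6 in FAC replicates 5 to 8, against 44.26, 42.82 and 43 in DFO. For Mrps genes they were 43.85, 53.28, 42.38 and 42.31 in FAC, against 44.58, 41.92 and 44.2 in DFO.

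Mrpl41, a large subunit protein added to the particle in the course of mitochondrial evolution, had the highest fold change of the members. It had 63.8, 120.5, 55.4 and 65.5 CPM in FAC replicates 5 to 8, against 37.7, 37.4 and 36.5 CPM in DFO. The 3 DFO libraries were almost equal, all FAC libraries were above them, and FAC replicate 6 was far above the other FAC libraries. The fitted log2 fold change was 1.04 ± 0.24 (SE, edgeR adjusted p = 0.00686), and 0.74 ± 0.07 without FAC replicate 6 (edgeR adjusted p = 1.5e-07). Mrpl41 also rose on the TPM scale, with 45.8 ± 10.8 TPM in FAC and 28.5 ± 0.4 TPM in DFO (limma adjusted p = 0.00687).

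Mrpl55, a large subunit protein, had 18.1, 21.7, 13.4 and 17.2 CPM in FAC against 10.6, 10.2 and 10.3 CPM in DFO (log2 fold change 0.76 ± 0.14, edgeR adjusted p = 0.00247). Mrpl20, which binds ribosomal RNA early in large subunit assembly in bacteria, had 59.5, 76.6, 46.0 and 55.1 CPM in FAC against 38.1, 36.4 and 37.1 CPM in DFO. For both genes the groups did not overlap, and the lowest FAC library was replicate 7. The next Mrpl genes by fold change were Mrpl27 (0.64 ± 0.15), Mrpl57 (0.62 ± 0.14) and Mrpl54 (0.62 ± 0.17), each with an edgeR adjusted p between 0.00522 and 0.0167. Mrpl45, which in humans helps to tether the ribosome to the inner membrane, differed by less but with little spread: it had 52.3, 56.4, 52.6 and 50.3 CPM in FAC against 42.5, 40.4 and 39.4 CPM in DFO (0.38 ± 0.07, edgeR adjusted p = 0.00165). Mrpl12, a protein of the stalk that recruits translation factors, had 50.6 ± 10.96 CPM in FAC and 36.5 ± 1.0 CPM in DFO (0.47 ± 0.14, edgeR adjusted p = 0.0234).

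In the small subunit, Mrps12, a protein of the decoding centre, had 30.5, 39.8, 25.5 and 25.2 CPM in FAC against 20.1, 18.2 and 18.3 CPM in DFO. All FAC libraries were above all DFO libraries (log2 fold change 0.68 ± 0.16, edgeR adjusted p = 0.0068). Mrps28 and Mrps21, which rose by 0.74 ± 0.24 and 0.71 ± 0.25, leaned on FAC replicate 6: Mrps28 had 14.5, 25.5, 11.7 and 13.4 CPM in FAC against 9.44, 9.96 and 9.70 CPM in DFO, and without that library its log2 fold change was 0.46 ± 0.10. Mrps10 (0.63 ± 0.14), Mrps36 (0.62 ± 0.14) and Mrps15 (0.60 ± 0.18) completed the leading small subunit genes. Mrps36 is now regarded as a subunit of the 2-oxoglutarate dehydrogenase complex and not of the ribosome, and it had 20.97, 29.1, 18.9 and 22.3 CPM in FAC against 14.7, 13.9 and 15.8 CPM in DFO.

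The other 19 Mrpl and 12 Mrps genes were not called. Mrpl3, which lies near the peptidyl transferase centre, had 41.9 ± 4.2 CPM in FAC and 38.5 ± 1.7 CPM in DFO (edgeR adjusted p = 0.288). Mrps22, Mrps30 and Mrps34 had log2 fold changes of 0.20, 0.22 and 0.36 with adjusted p from 0.112 to 0.167 in edgeR. Mrps6 was the member below 0, with 4.74, 6.83, 4.79 and 5.65 CPM in FAC against 7.15, 7.22 and 5.22 CPM in DFO. Its annotated body overlaps Slc5a3 and Gm49711 on the same strand, so reads may be shared with them. Its groups overlapped and it was not called with all libraries. It was called lower with FAC replicate 6 left out (-0.35 ± 0.14, edgeR adjusted p = 0.0462), with length and GC offsets (-0.56 ± 0.13, edgeR adjusted p = 0.00545) and on the TPM scale (-0.53 ± 0.13, limma adjusted p = 0.00818). It was not called with upper-quartile factors (edgeR adjusted p = 0.305), DESeq2 (DESeq2 adjusted p = 0.33) or the FAC and DFO arms alone (edgeR adjusted p = 0.278). Nor was it called without the filter or with any other FAC or DFO library left out.

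Of the proteins with a bacterial counterpart 30 of 48 rose, and of those specific to mitochondria 16 of 29, where 23.5% of all tested genes rose; Mrps36, which also rose, was put in neither class. Across the 78 members the fold change ran against transcript length, with Spearman's rho of -0.39, about that over all tested genes with a known length (-0.39); this describes genes measured in the same libraries. When the fit carried offsets for transcript length and GC, 37 members rose and 1, Mrps6, fell, where 25.1% of all tested genes rose and 26.9% fell, and the medians were 0.21 for Mrpl and 0.25 for Mrps genes; Mrpl2 and Mrpl44, which rose without offsets, had the other sign.

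**Figure D2:**
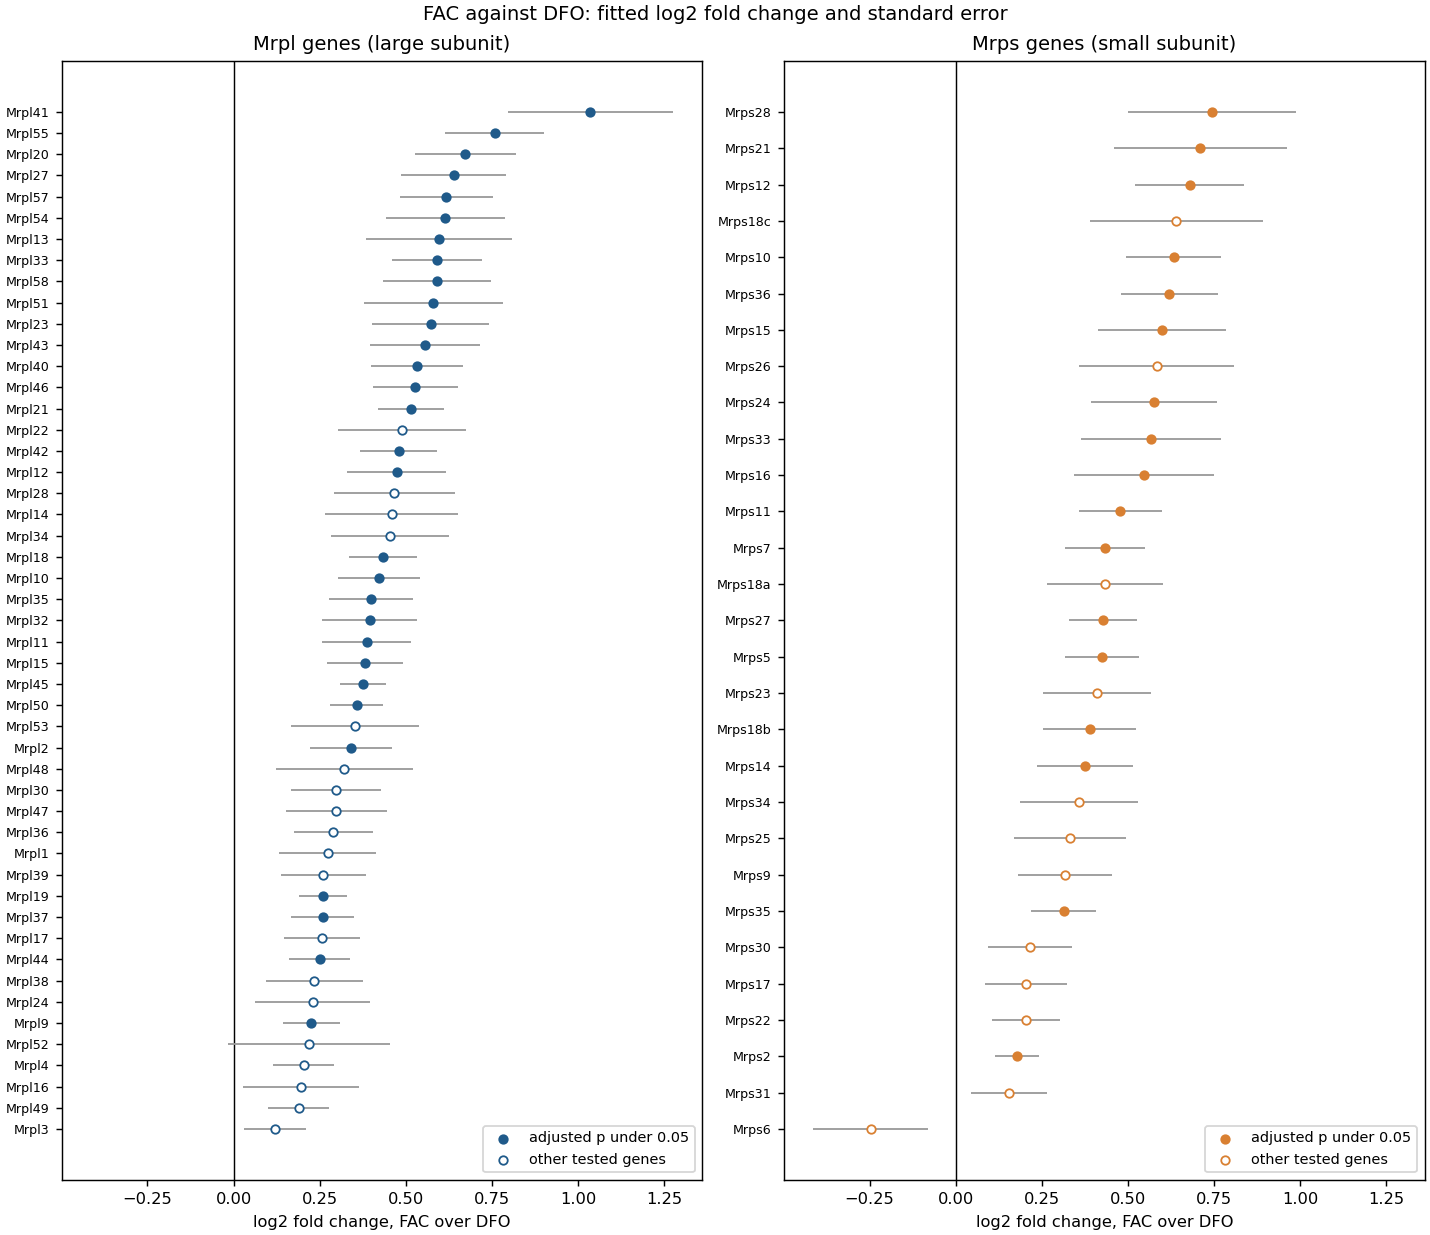
Fitted log2 fold change, FAC over DFO, of each Mrpl gene (left) and Mrps gene (right), on the CPM scale. Points are edgeR estimates from 4 FAC and 3 DFO libraries, lines are 1 SE to each side, and filled points have an adjusted p under 0.05. Mrps6 at -0.25 is the only point below 0 on this scale; on the deposited TPM scale 6 of the filled genes have the other sign.

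On the CPM scale, FAC replicate 6 was the highest FAC library for 76 of 78 members. The share over all tested genes is not given here. By deposited TPM its medians, 50.3 for Mrpl and 53.3 for Mrps genes, were also the highest of the FAC libraries, but single members differed. Mrpl41 was highest there at 61.8 TPM, whereas Mrpl45 (32.8, 28.7, 36.2 and 32.3 TPM in FAC replicates 5 to 8) and Mrpl19 (14.9, 10.35, 15.8 and 14.0 TPM) were lowest there. Without it, 60 members rose and 1 fell, where 31.9% of all tested genes rose and 30.7% fell, and the medians were 0.28 for Mrpl and 0.32 for Mrps genes. All 47 genes that rose with every library included were among those 60. Without DFO replicate 9 the number that rose was 26 (background 17.5%), without replicate 11 it was 20 (15.4%) and without replicate 12 it was 22 (16%). Without FAC replicate 7 it was 62, where 27.6% of all tested genes rose.

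Both arms were compared with the untreated cultures, which supply the same 2 CON libraries to each comparison. DFO against CON gave 3 Mrpl genes that fell and none that rose, and no Mrps gene was called, where 6.46% of all tested genes rose and 5.12% fell (edgeR). The fitted values were below 0 for 75 of 78 members, with medians of -0.19 for Mrpl and -0.25 for Mrps genes against 0.00 for all tested genes. For 58 of 78 members every DFO library lay below both CON libraries, against 32.9% of all tested genes. The 3 genes that fell were Mrpl45, Mrpl19 and Mrpl50. Mrpl45 had 42.5, 40.4 and 39.4 CPM in DFO against 50.9 and 48.7 CPM in CON (log2 fold change -0.29 ± 0.08, edgeR adjusted p = 0.0439). Mrpl19 had 41.4, 40.0 and 40.2 CPM in DFO against 50.3 and 50.5 CPM in CON (-0.31 ± 0.08, edgeR adjusted p = 0.0379). The groups were apart in both genes and the CON libraries nearly equal. Limma on the deposited TPM called 1 member higher and 2 lower, where 6.92% of all tested genes were higher and 2.63% lower, and with length and GC offsets edgeR called 1 higher and 9 lower (11.7% and 10.3%). Of Mrpl45, Mrpl19 and Mrpl50, 0 were called lower on the TPM scale and 2 with the offsets.

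These calls depended on the FAC libraries, because the 3 arms share 1 estimate of the spread. With FAC replicate 6 left out, which removes no DFO or CON library, 37 members fell and 1 rose, where 20.2% of all tested genes fell and 18.9% rose, with medians of -0.20 for Mrpl and -0.25 for Mrps genes. Among the genes that then fell were Mrpl41 (-0.46 ± 0.08, edgeR adjusted p = 0.00024), Mrps18b (-0.44 ± 0.07), Mrpl20 (-0.43 ± 0.09) and Mrpl18 (-0.35 ± 0.06). A fit of the DFO and CON libraries alone gave 47 that fell and 1 that rose, where 24.3% of all tested genes fell and 23.7% rose. The gene that rose in both was Mrpl52, with 8.64, 7.998 and 10.2 CPM in DFO against 6.26 and 6.42 CPM in CON (0.49 ± 0.14 without FAC replicate 6, edgeR adjusted p = 0.0111). Without any 1 of the DFO or CON libraries, no member was called.

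FAC against CON called no member in edgeR (3 at an unadjusted p under 0.05) or in DESeq2, where edgeR called 1.76% of all tested genes higher and 4.28% lower. The fitted values were above 0 for 73 of 78 members on the CPM scale, with medians of 0.21 for Mrpl and 0.23 for Mrps genes, and for 14 members every FAC library exceeded both CON libraries, against 17.1% of all tested genes. Without FAC replicate 6 the medians were 0.09 and 0.05, and 3 members rose, Mrpl41 (0.28 ± 0.07, edgeR adjusted p = 0.0116), Mrpl52 (0.44 ± 0.14, adjusted p = 0.0328) and Mrps7 (0.27 ± 0.07, adjusted p = 0.0139), where 9.98% of all tested genes rose. On the TPM scale the medians were -0.03 for both subunits, with all tested genes at -0.20, so that relative to all genes the members' median was higher by 0.24 on the CPM scale and by 0.17 on the TPM scale. With length and GC offsets the medians were 0.06 for Mrpl and 0.09 for Mrps genes, and 1 member was called lower, where 7.5% of all tested genes were. Mrpl52 had 8.88, 15.96, 7.49 and 9.31 CPM in FAC and 8.64, 7.998 and 10.2 CPM in DFO, against 6.26 and 6.42 CPM in CON, with both arms above the untreated cultures.

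**Figure D3:**
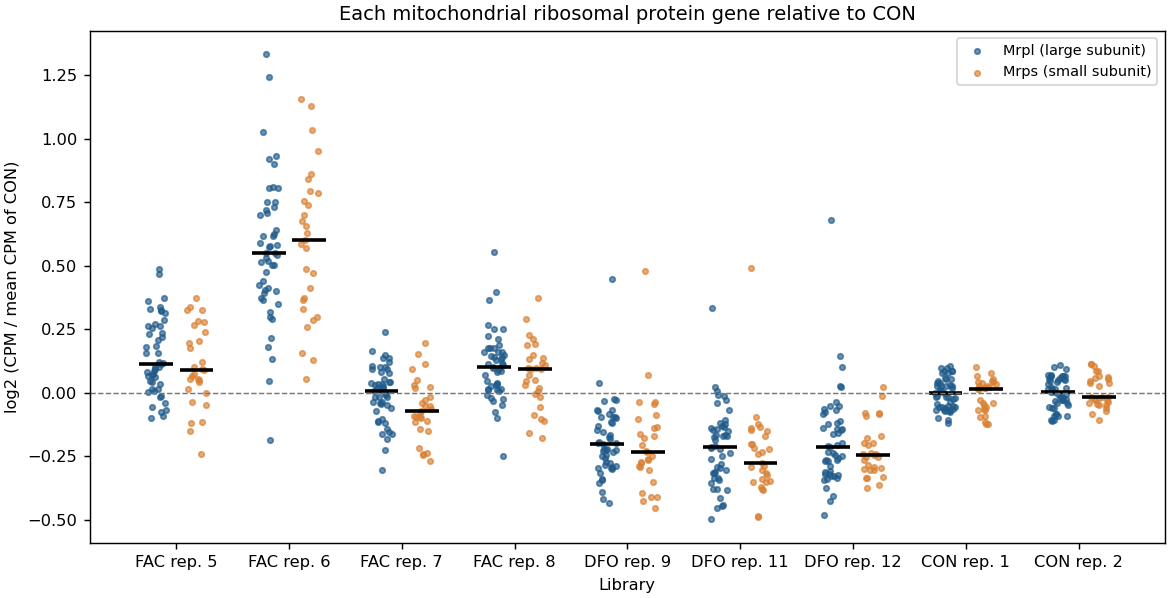
Each point is 1 member, plotted as the log2 ratio of its CPM in a library to its mean CPM in the 2 CON libraries, for Mrpl (blue) and Mrps genes (orange); black bars are medians. The medians lie at 0.55 and 0.60 in FAC replicate 6, between -0.07 and 0.12 in the other 3 FAC libraries and between -0.20 and -0.27 in the 3 DFO libraries; on the TPM scale the medians of FAC against CON are -0.03, with all tested genes at -0.20.

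Markers of cell types moved with iron as well. All 10 eosinophil markers rose in FAC against DFO, with sums of 57859 to 70002 CPM in FAC and 18627 to 22014 CPM in DFO, against 42536 and 43485 CPM in CON. All 10 neutrophil markers fell, with sums of 6418 to 9285 CPM in FAC and 16750 to 18820 CPM in DFO, and all 8 markers of plasmacytoid dendritic cells and all 6 progenitor markers fell too. Of 8 cycling cell genes, such as Mki67 and Top2a, 7 rose, with sums of 2374 to 3150 CPM in FAC, 1997 to 2047 CPM in DFO and 2582 to 2646 CPM in CON. FAC replicate 6, the highest FAC library for most members on the CPM scale, was the lowest FAC library for the cycling cell sum. None of these markers was at 0 in either arm, and the part of these cell types in the ribosomal protein values was not tested.

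Other genes of the pathway were counted in the same fit, in which 23.5% of all tested genes rose, 24.8% fell and the median was -0.01. Of 5 mitoribosome proteins whose symbols are not Mrpl or Mrps, 4 rose in FAC against DFO, with a median of 0.61: Dap3 had 68.8 ± 15.6 CPM in FAC and 45.0 ± 2.2 CPM in DFO (0.61 ± 0.15, edgeR adjusted p = 0.00871), and Aurkaip1 83.4 ± 25.02 CPM in FAC and 51.3 ± 2.9 CPM in DFO (0.70 ± 0.19, adjusted p = 0.0152). Of 26 assembly factors 4 rose (median 0.10), led by Mettl17, a factor for small subunit assembly that carries an iron-sulphur cluster in yeast and human cells, with 26.4 ± 6.5 CPM in FAC and 14.2 ± 0.6 CPM in DFO (0.89 ± 0.16, adjusted p = 0.00209). Of 12 translation factors 3 rose (Tufm, Tsfm and Gfm1; median 0.07), of 17 mitochondrial aminoacyl-tRNA synthetases 1 (Cars2; median 0.08), and of 16 genes for mitochondrial transcription and RNA handling 3 (Tfam, Slirp and Tbrg4; median 0.06); none fell. The shares that rose among the assembly factors, the synthetases and the RNA handling genes were below that of all tested genes, and that of the translation factors was near it. Among 9 regulators of nuclear genes for mitochondria, 8 of them tested, Ppargc1b fell, with 3.42 ± 0.89 CPM in FAC and 6.46 ± 0.69 CPM in DFO (-0.91 ± 0.20, adjusted p = 0.00453), and Myc rose (0.33 ± 0.08, adjusted p = 0.00784). Of the 25 tested genes that lie head to head with a member, 10 rose and 3 fell. Among those that rose are Mrpl46 and Mrps11, which lie opposite each other and are members already counted above. Eme1, a nuclease subunit opposite Mrpl27, and Ska3, a spindle protein opposite Mrpl57, rose by 0.62 and 0.60, whereas Wdfy1 opposite Mrpl44 fell by 0.74 on the log2 scale.

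Cytokine treatment moved members both ways. With T2 set against REST, 29 of 48 tested Mrpl genes rose and 6 fell, and 14 of 28 tested Mrps genes rose and 1 fell, where 38.2% of all 11345 tested genes rose and 37.9% fell (edgeR). The medians were 0.34 for Mrpl and 0.20 for Mrps genes, against -0.01 for all genes. The split shifted with the scaling: 86% of the members' calls were higher on the CPM scale, whereas upper-quartile factors gave 32 higher and 14 lower (69.6% higher; 32.5% and 43.4% of all tested genes) with the median of all genes at -0.13, and limma on the deposited FPKM gave 27 higher and 17 lower (61.4% higher; 26.9% and 45.4% of all tested genes) with it at -0.15. Relative to all genes, the members' median was higher by 0.31 with TMM and with upper-quartile factors, and by 0.26 on the FPKM scale. With length and GC offsets 37 members were higher and 13 lower (74% higher), where 38.6% of all tested genes were higher and 38.7% lower, and the medians were 0.30 for Mrpl and 0.08 for Mrps genes with all genes at -0.02. For 45 members every T2 library lay above every REST library and for 11 below, against 38.8% and 39% of all tested genes. Of the 50 genes called with TMM, Mrps30 alone changed sign, on the FPKM scale.

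Mrps28, a small subunit protein, had the largest ratio at a low level: 3.93, 3.41 and 4.36 CPM in T2 against 0.51, 0.51 and 0.40 CPM in REST. The groups were far apart, and the log2 fold change was 3.02 ± 0.29 (SE, edgeR adjusted p = 8.8e-08). By deposited FPKM it had 4.62 ± 0.63 in T2 and 0.65 ± 0.08 in REST (SD, n = 3 each), which placed it among the 3 lowest members by the mean over the 6 libraries. Mrps18b, 1 of a trio of related proteins in mammals, had 31.4, 25.6 and 30.9 CPM in T2 against 8.42, 7.35 and 7.00 CPM in REST (1.95 ± 0.10, edgeR adjusted p = 6.9e-11). Its relatives rose by less, Mrps18a by 0.58 ± 0.10 and Mrps18c by 0.29 ± 0.09. Mrps27, which in humans binds RNA through pentatricopeptide repeats, Mrps2, a conserved protein of the subunit, and Mrps22 rose by 1.41 ± 0.14, 1.27 ± 0.12 and 1.25 ± 0.16.

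In the large subunit, Mrpl52, a protein specific to mitochondria, had 23.1, 20.2 and 20.8 CPM in T2 against 5.90, 7.46 and 7.34 CPM in REST (1.63 ± 0.11, edgeR adjusted p = 8.7e-10). Mrpl41, the gene with the highest fold change of FAC over DFO, had 29.1, 26.6 and 29.6 CPM in T2 against 9.60, 9.04 and 10.4 CPM in REST (1.56 ± 0.09, edgeR adjusted p = 9.8e-11). Every T2 library exceeded every REST library by more than the range within either group in both genes. Mrpl54 (1.40 ± 0.10), Mrpl45 (1.20 ± 0.07), Mrpl12 (1.03 ± 0.10) and Mrpl35 (0.97 ± 0.11) followed. Mrpl45 had 40.9, 43.8 and 44.6 CPM in T2 against 18.1, 19.2 and 18.8 CPM in REST, with groups as clearly apart. Mrpl3 and Mrpl11, a protein at the base of the stalk, rose by 0.59 ± 0.07 and 0.84 ± 0.11.

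The members that fell included Mrpl24, a conserved large subunit protein with the highest mean CPM of the members in REST. It had 49.0, 51.0 and 55.0 CPM in T2 against 74.0, 72.0 and 77.3 CPM in REST (-0.53 ± 0.06, edgeR adjusted p = 6.3e-07). Mrpl34, another protein with a bacterial counterpart, had 7.18, 8.27 and 7.16 CPM in T2 against 15.6, 15.3 and 12.1 CPM in REST (-0.93 ± 0.12, edgeR adjusted p = 3.6e-06). In both genes every T2 library lay below every REST library. Mrps35 was the small subunit gene that fell, with 11.7, 10.5 and 14.2 CPM in T2 against 22.5, 18.6 and 20.7 CPM in REST (-0.76 ± 0.11, edgeR adjusted p = 1.1e-05). Mrpl58, a peptidyl-tRNA hydrolase that rescues stalled ribosomes, fell by 0.47 on the log2 scale, and Mrpl44, Mrpl30 and Mrpl33 fell by 0.19 to 0.20. Mrps12, which rose with FAC against DFO, had 7.92, 7.11 and 8.39 CPM in T2 and 9.60, 8.43 and 7.34 CPM in REST (edgeR adjusted p = 0.434), with overlapping groups, and Mrps36 had a log2 fold change of -0.34 ± 0.15 (adjusted p = 0.0507).

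**Figure D4:**
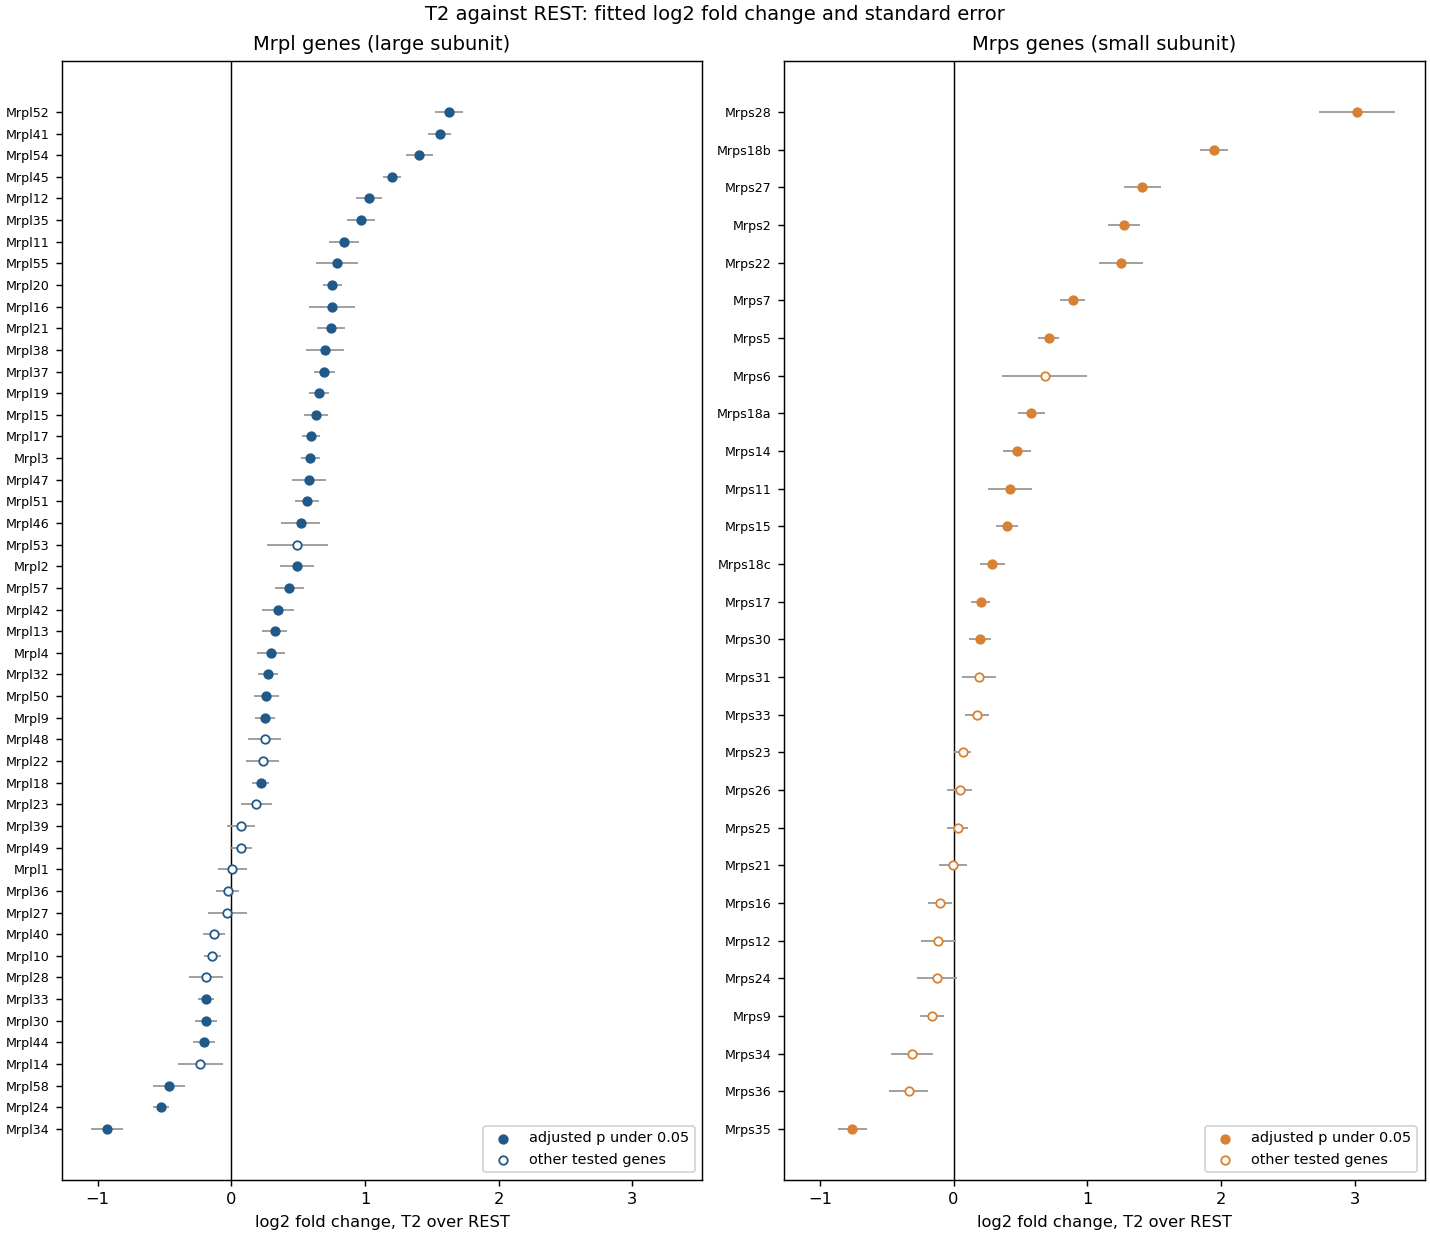
Fitted log2 fold change, T2 over REST, of each tested Mrpl gene (left) and Mrps gene (right), on the CPM scale. Points are edgeR estimates from 3 T2 and 3 REST libraries, lines are 1 SE to each side, and filled points have an adjusted p under 0.05. Members range from -0.93 for Mrpl34 to 3.02 for Mrps28; Mrps30 has the other sign on the FPKM scale.

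The other lists are read beside the 38.2% of all tested genes that rose and the 37.9% that fell, with a median of -0.01. Of 26 assembly factors, 14 rose and 3 fell in T2 against REST (median 0.25). Ddx28, a helicase for large subunit assembly, had 50.4 ± 2.8 CPM in T2 and 9.83 ± 1.197 CPM in REST (2.36 ± 0.09, edgeR adjusted p = 4.9e-13), and Rbfa, a factor for the small subunit, fell to 36.6 ± 2.2 CPM in T2, against 63.8 ± 2.8 CPM in REST. Of 16 genes for mitochondrial transcription and RNA handling 9 rose and 1, Polg2, fell (median 0.48). Of 12 translation factors 4 rose, with Gfm1 at 48.3 ± 1.0 CPM in T2 and 23.5 ± 1.2 CPM in REST, and 1 fell (median 0.06), while of 17 aminoacyl-tRNA synthetases 6 rose and 5 fell (median 0.06); the shares of both lists that rose were near that of all tested genes. Of 13 mitochondrially encoded subunits, which the mitoribosome makes, 2 rose and 2 fell, with a median of -0.07, in libraries made from poly(A) RNA. The regulators named next were chosen after their values were seen and do not stand for the whole list. Pprc1, a coactivator of the PGC-1 family, had 76.2 ± 3.1 CPM in T2 and 9.47 ± 0.66 CPM in REST (3.01 ± 0.07, edgeR adjusted p = 2.8e-15). Gabpb1, a subunit of an ETS-family factor, rose by 0.91 ± 0.06, and Yy1 fell by 0.45 on the log2 scale. Neutrophil markers summed to 1104 to 1160 CPM in T2 and 2473 to 2698 CPM in REST, with 1 of 10 higher and 6 lower, and eosinophil markers to 6082 to 6210 CPM in T2 and 7495 to 7854 CPM in REST; their part in the result was not tested. The cycling cell genes were low in both groups, at 119 to 127 CPM in T2 and 125 to 129 CPM in REST.

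Few members were called between eosinophils and progenitors, and the fitted values moved with the scale and the offsets. With EOS set against GMP, 1 Mrpl gene rose, 1 Mrps gene fell and 76 members were not called, where 13% of all 12214 tested genes rose and 6.78% fell (edgeR). The medians were 0.62 for Mrpl and 0.36 for Mrps genes on the CPM scale, with all genes at 0.01. On the deposited TPM scale they were -0.52 and -0.81, with all genes at -0.85, and limma on log2(TPM + 1) called 22 members lower and none higher, where 34.5% of all tested genes were lower and 5.91% higher. With length and GC offsets the medians were -0.12 and 0.00, and 2 members rose and 11 fell (14.7% and 8.41% of all tested genes). DESeq2 called 14 higher and 3 lower (19% and 12.7%), and upper-quartile factors 1 higher and 2 lower (12.1% and 7.46%). Relative to all tested genes, the Mrpl median was higher by 0.61 and the Mrps median by 0.35 on the CPM scale, and by 0.33 and 0.04 on the TPM scale. With length and GC offsets the Mrpl median was below that of all genes, at -0.12 relative to them, and the Mrps median was at theirs.

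The EOS libraries differed among themselves. On the CPM scale, the median ratio of a member to its GMP mean was 1.02 for Mrpl and 0.96 for Mrps genes in EOS replicate 1. It was 1.32 and 1.14 in replicate 2, and 2.52 and 1.58 in replicate 3. By deposited TPM the order ran the other way, with Mrpl medians of 78.3, 77.4 and 57.6 in EOS replicates 1 to 3. The Mrps medians were 66.8, 64.2 and 47.8 TPM. All lay below the GMP libraries, at 95.6 to 110.9 TPM for Mrpl and 88.6 to 104.2 TPM for Mrps genes. Mrpl33 had 41.7, 74.0 and 342.5 CPM in EOS against 43.5, 44.0 and 47.7 CPM in GMP, and Mrps21 had 31.98, 37.7 and 128.3 CPM in EOS against 20.1, 15.1 and 21.5 CPM in GMP. In Mrpl33 the first EOS library lay below the GMP libraries and the last far above them, whereas every EOS library exceeded every GMP library in Mrps21. EOS replicate 3 was also the library with the highest neutrophil marker sum, 197980 CPM, and the lowest TMM factor, 0.689; the part of either in these values was not tested. Without it the medians were 0.25 for Mrpl and 0.08 for Mrps genes, and 6 members rose and 2 fell, where 20.1% of all tested genes rose and 16.4% fell. Without EOS replicate 1, 21 rose and 1 fell (15.9% and 8.31%), and without any 1 GMP library none was called.

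**Figure D5:**
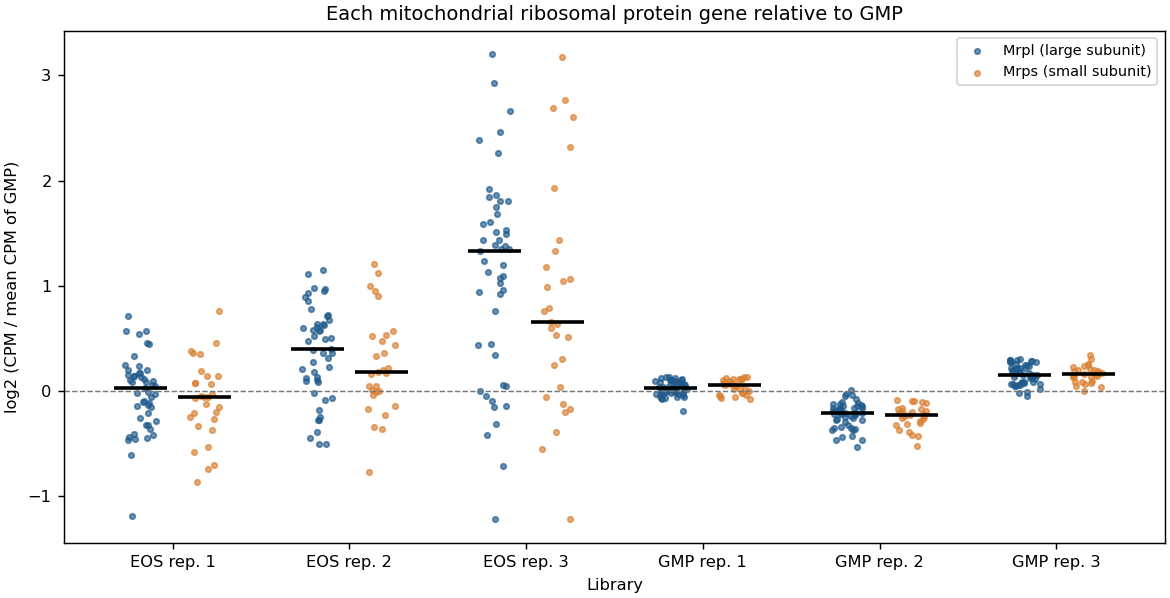
Each point is 1 member, plotted as the log2 ratio of its CPM in a library to its mean CPM in the 3 GMP libraries, for Mrpl (blue) and Mrps genes (orange); black bars are medians. The medians lie at 1.34 and 0.66 in EOS replicate 3 and between -0.23 and 0.16 in the GMP libraries. On the deposited TPM scale the medians of EOS against GMP are -0.52 and -0.81, with all tested genes at -0.85. By TPM, replicate 3 has the lowest medians of the EOS libraries.

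The gene that fell was Mrps2, with 42.7, 45.7 and 33.4 CPM in EOS against 80.2, 72.9 and 79.5 CPM in GMP. Every EOS library was far below every GMP library (log2 fold change -0.93 ± 0.18, edgeR adjusted p = 0.0149), and it was also called lower with upper-quartile factors, DESeq2, length and GC offsets, the TPM scale and EOS replicate 3 left out. With any 1 GMP library left out, Mrps2 was not called. Mrpl14, a conserved protein at the subunit interface, rose, with 42.9, 51.3 and 93.9 CPM in EOS against 28.1, 19.4 and 30.9 CPM in GMP (1.26 ± 0.35, adjusted p = 0.0462), but its estimate was -0.21 with length and GC offsets. Mrpl3 had 46.1, 50.8 and 46.4 CPM in EOS against 59.5, 52.2 and 60.8 CPM in GMP (adjusted p = 0.272), and Mrps30 36.6, 33.8 and 36.8 CPM in EOS against 39.8, 32.9 and 41.8 CPM in GMP (adjusted p = 0.741). Of 12 translation factors none was called in edgeR, with 1 estimate above 0 and a median of -0.57, and of 26 assembly factors Rbfa rose and Dhx30 fell. Mrps2 thus fell in EOS against GMP and rose in T2 against REST, and in FAC against DFO it rose by 0.18 ± 0.06 on the CPM scale but had the other sign on the TPM scale.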

How the data were processed

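Poly(A) RNA was sequenced, per the labels' protocols, and the submitters' processing notes name fastp 0.18.0, Bowtie2 2.2.8, HISAT2, StringTie 1.3.1, RSEM and the mm10 build without saying which tool made which column. The authors deposited expected counts (estimated reads per gene) and TPM for EOS and GMP and for cultured eosinophils, and whole-number counts and FPKM for T2 and REST. Expected counts were rounded. The 3 tables had separate fits in edgeR 4.0.16 (R 4.3.3) with filterByExpr, TMM factors and the quasi-likelihood test, and the 3 cultured arms shared 1 fit. Calls are at an adjusted p under 0.05 over all tested genes. Scripts were tested on simulated data. Members, lists, the rule for named genes and comparisons were chosen with earlier results of these data known. Named members were a fixed panel of 10, up to 6 called genes per subunit and direction, and the 3 highest and 3 lowest per table; other genes named were chosen after their values were seen. Alternatives were upper-quartile factors, DESeq2 1.42.0, no filter, length and GC offsets (splines with 4 degrees of freedom), each library left out and, added after seeing the data, limma 3.58.1 on log2(TPM or FPKM + 1), 2 further choices of library and offset. Replicate numbers shared between groups were not treated as pairs in the main fits. Depth bounds only the low genes; the total counts per library are given above. Sequences came from RefSeq tables; proteins were not analysed here.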

Additional observations from a re-analysis of the deposited data

Results flagged for a closer look

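In the FAC group, 12 of 78 members had 1 library whose gap to the nearest other library, divided by the range of the group, passed Dixon's 95% critical value for 4 samples, and in all 12 that library was FAC replicate 6. Chance flags about 1 in 20 groups, and the members share their libraries, so the flags are not independent. The gaps were taken on the CPM scale. The rate over all tested genes is not given here, so whether 12 of 78 is particular to the members is not known. Mrpl41 had 120.5 CPM in FAC replicate 6, against 55.4 to 65.5 CPM in the other FAC libraries. Mrps25 had 30.5 CPM there, against 20.1 to 21.2 CPM in the others. Groups of 3 or fewer libraries were not examined in this way.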

How the results depend on the processing

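Depth was high for all but a few members, and the small numbers of libraries limit the tests. With EOS set against GMP, 2 members were called. DESeq2 called 17, length and GC offsets 13, the fit with a replicate block 1 and deposited TPM 22. Offsets without EOS replicate 3, added after seeing the data, called 23, most of them lower. Leaving out 1 library gave 0 to 22. Shares over all tested genes are not given here for the replicate block, offsets without EOS replicate 3, no filter and several fits without 1 library. Those counts cannot be set beside all genes. The Mrpl median reversed to -0.12 with offsets, -0.16 with offsets without EOS replicate 3 and -0.52 on TPM, and the Mrps median to -0.15 and -0.81 in the last pair; on TPM all tested genes were at -0.85, so relative to them neither median reversed. Mrpl12 reversed to -0.68 and -0.92 in that pair, Mrpl14 to -0.21 with offsets and -0.027 with offsets without EOS replicate 3, and Mrps22 to -0.86 on TPM. The cause was not tested. Same-numbered EOS and GMP libraries deviated with correlations of 0.0124, 0.00498 and 0.119, and T2 and REST libraries with -0.00918, -0.0216 and 0.0335. With 3 libraries per group such values cannot show whether equal numbers were paired, and the numbers were not treated as pairs in the main fits. No paired analysis was possible for cultured eosinophils because their arms share no replicate numbers. With the replicate block, T2 against REST gave 49 calls in place of 50, and leaving out 1 library 45 to 50. Mrps30 was -0.017 on FPKM in T2 against REST. With DFO set against CON, 3 members were called; no filter gave 1, offsets 10, the 2 arms alone 48, FAC replicate 6 left out 38, and leaving out a DFO or CON library 0. With FAC set against CON, 0 were called, 1 with offsets (lower) and 0 to 3 without 1 library, and the TPM medians reversed to -0.028 for Mrpl and -0.033 for Mrps genes with all tested genes at -0.20, so that relative to all genes they stayed higher, by 0.17 each. With T2 set against REST, offsets gave 37 higher and 13 lower in place of 43 and 7. With FAC set against DFO, 47 were called, 14 on TPM and 20 to 62 without 1 library; Mrpl44 reversed to -0.014 with offsets and -0.063 on TPM.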
